A study of Mus musculus with 10 samples.

Results

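Forkhead box O (FOXO) transcription factors are switched off by the PI3K pathway. When phosphoinositide 3-kinase is active, its effector AKT phosphorylates FOXO proteins, which then leave the nucleus, and the genes they drive are transcribed less, while FOXO mRNA itself need not change. Endothelial FOXO1 is best known for holding blood vessel cells in a quiescent state. The 10 genes described here are 3 of the factors (Foxo1, Foxo3, Foxo4) and 7 genes commonly used as their transcriptional readout, which are Irs2, Txnip, Sesn1, Ccng2, Pik3ip1, Bcl6 and Tsc22d3. They were taken by name out of 28522 genes read in at least 3 cells, with earlier results of these data known, and each matched 1 gene of the count tables. The question put to them was whether the FOXO-responsive genes fell in skin endothelial cells with active PI3K.

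The cells were sorted on podoplanin and CD31 from the ear skin of mice 5 weeks old and read 1 by 1 with Smart-Seq2, a plate-based full-length RNA-seq method. The mutant group was 5 Pik3caH1047R;Cdh5-CreERT2 mice (Cre+) given 4-OHT on the ear at 3 weeks, in which the Cdh5 promoter drives the inducible Cre in all endothelium, so lymphatic and blood endothelial cells could both express the activating PI3K allele. Which single cells had recombined was not analysed here. Of the 2 control mice with counts, control 1 belonged to the strain C57BL/6J and had no treatment. Control 2 was of the mutant strain, Cre-, and had 4-OHT. By the study's methods every mouse was on a C57BL/6J background. No introduced allele or treatment is known to be shared by all 7 mice, and of the controls only control 2 had the drug of the mutants. A further Cre- control was not analysed here. Lymphatic endothelial cells (LECs) were cells with at least 300 CPM, reads of a gene scaled by the total of its cell, summed over Prox1, Flt4 and Mmrn1 and more than over Flt1, Emcn and Podxl, and blood endothelial cells (BECs) the reverse. Each mouse gave 175 to 367 LECs and 157 to 330 BECs, whose reads were summed per mouse, since cells of 1 mouse are not replicates. The labels name the cells LECs throughout, whereas by the study's methods both LECs and BECs were sorted. By these genes, too, every mouse gave both.

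Most of the FOXO-responsive genes did not pass the test for a fall. In LECs, 0 of the 10 genes passed an adjusted p of 0.05 in edgeR's quasi-likelihood test over 19753 genes, of which 1.96% were called higher and 0.805% lower in the mutants. At an unadjusted p under 0.05, 3 of the 10 passed in LECs (Irs2, Pik3ip1, Bcl6) and 3 in BECs (Foxo1, Ccng2, Bcl6). Over all genes, 3963 of 19753 in LECs and 3792 of 19313 in BECs were under that unadjusted p. DESeq2 called 2 members in each, and it also called more of all genes than edgeR (counts in the closing section). In BECs, 1 of the 10, Bcl6, passed edgeR's adjusted p of 0.05 and was lower, where 1.51% of 19313 genes were called higher and 0.611% lower. The median log2 fold change of the 7 responsive genes, mutant over control, was -0.57 in LECs and -0.49 in BECs, against -0.01 and 0.01 over all genes tested. All 7 were on the lower side in LECs and 5 of 7 in BECs, a count that changed when the untreated control 1 was left out. Without it 4 of 7 were below 0 in LECs (median -0.21) and 3 of 7 in BECs (median 0.19). None of the 3 factors passed in either direction, and the level of Foxo1 in BECs lay above both controls in every mutant mouse without passing the test. More members passed between LECs and BECs, and inside the mutant LECs between Ptx3-positive and Ptx3-negative and between cycling and non-cycling cells. Those tests compared sums within mice and called larger shares of all genes, so their counts do not rank the differences by size.

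FOXO proteins bind a core of GTAAACA, and CAAAACA is a weaker relative. Promoter windows of 250 bases before to 50 after the start site were available from RefSeq (build GRCm38.p6) for 9 of the 10 genes, in 13 windows. Either strand was searched, so TGTTTAC and TGTTTTG count too, and the motifs cannot overlap as the same letters. GTAAACA stood in 3.65% and CAAAACA in 6.28% of all 32851 windows. The genes lie on chromosomes 3 (Foxo1, Txnip), 10 (Foxo3, Sesn1), X (Foxo4, Tsc22d3), 8 (Irs2), 5 (Ccng2), 11 (Pik3ip1) and 16 (Bcl6). Among the members, 2 genes held GTAAACA (Txnip and Sesn1) and 2 held CAAAACA (Irs2 and Ccng2), each motif in 2 of the 13 windows. The other window of Sesn1 held neither. The 4 windows that hold a searched motif are shown, with the match in capitals and the rest in lower case, 5′ to 3′ on the strand of the gene. The RefSeq start sites used for them can differ from the gene ends of the count annotation. They lie at chr3:96557707-96558006, plus strand, at chr10:41810324-41810623, plus strand, at chr8:11008880-11009179, minus strand, and at chr5:93267323-93267622, plus strand, and hold the match 121 bases before, 23 bases after, 37 bases before and 16 bases before the start, respectively.
Txnip: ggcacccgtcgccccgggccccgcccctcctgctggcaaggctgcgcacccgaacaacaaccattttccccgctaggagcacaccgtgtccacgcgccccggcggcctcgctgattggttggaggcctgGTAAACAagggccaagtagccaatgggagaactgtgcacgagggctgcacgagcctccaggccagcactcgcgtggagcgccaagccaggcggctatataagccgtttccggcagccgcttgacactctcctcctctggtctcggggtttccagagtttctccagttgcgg
Sesn1: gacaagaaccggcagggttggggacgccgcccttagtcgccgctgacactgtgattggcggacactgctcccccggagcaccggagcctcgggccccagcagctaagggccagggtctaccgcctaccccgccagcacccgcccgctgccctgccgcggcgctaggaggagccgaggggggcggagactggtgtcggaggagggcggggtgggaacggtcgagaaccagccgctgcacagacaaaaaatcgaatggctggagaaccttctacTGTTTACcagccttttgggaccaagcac
Irs2: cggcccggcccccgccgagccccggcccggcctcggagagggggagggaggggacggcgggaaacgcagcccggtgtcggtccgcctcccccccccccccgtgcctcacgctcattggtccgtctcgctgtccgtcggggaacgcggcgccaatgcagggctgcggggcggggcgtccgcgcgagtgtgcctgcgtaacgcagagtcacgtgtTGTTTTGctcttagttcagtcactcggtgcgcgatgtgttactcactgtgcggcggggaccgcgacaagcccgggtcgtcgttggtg
Ccng2: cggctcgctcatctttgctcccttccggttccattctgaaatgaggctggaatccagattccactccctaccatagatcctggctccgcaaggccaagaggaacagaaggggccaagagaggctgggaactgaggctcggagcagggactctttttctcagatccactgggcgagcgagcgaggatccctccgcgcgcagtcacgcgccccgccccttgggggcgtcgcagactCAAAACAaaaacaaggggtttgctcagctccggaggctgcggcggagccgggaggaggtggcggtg
The windows of Foxo1, Foxo3, Pik3ip1, Bcl6 and Tsc22d3 did not hold these letters. A match is a description of the letters and not a binding site.

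Several properties of the libraries moved with the groups. Each sum held 55616045 to 194353210 LEC reads or 38402388 to 99630824 BEC reads. The plate names fall into 2 ranges of numbers, taken here as 2 plate series, and 4 of the 5 mutant mice were on a series that holds no control. The labels do not say whether these series are batches. Control 1 read higher than control 2 for 17 of 18 member values (9 genes other than Irs2, in LECs and BECs), by up to 3.39-fold, and 8 of the 18 differed by more than 2-fold. Fibroblast transcripts (5 of 5 listed genes tested, 4 of them below both controls in every mutant) summed to 193 to 382 CPM in control LECs and 15.8 to 106 CPM in mutant LECs, and to 575 to 789.8 against 12.8 to 43.4 CPM in BECs. Sums over 5 mural markers were also lower in every mutant, at 38.4 to 69.0 against 119.7 to 139 CPM in LECs, where 2 of the 5 markers were below both controls in every mutant. The lymphatic check genes Lyve1, Pdpn, Reln and Ccl21a summed to at least 3210.4 CPM in every LEC sum and at most 463 CPM in BECs. The same sum was lower in every mutant, with 4721 to 4822 CPM in control and 3210.4 to 4179 CPM in mutant LECs. Of the 4 genes, 2 (Reln and Ccl21a) were below both controls in every mutant. Lyve1 overlapped, and Pdpn read 486 to 606 CPM in control LECs with a mutant median of 683 CPM. Blood endothelial check genes (Cd34, Ly6c1, Sox17, Vwf, Selp) summed to 71.0 to 260.4 CPM in control and 419 to 687 CPM in mutant LECs, 1 of the 5, Cd34, being above both controls in every mutant. Cd34 read 29.4 to 70.2 CPM in control and 355 to 624 CPM in mutant LECs. Schwann cell markers summed to 19.1 to 68.7 CPM in control and 0.827 to 12.3 CPM in mutant LECs. The part of these transcripts in the members' values was not tested. Cycling cells made up 0.546% and 2.29% of control LECs and 12.1% to 26.6% of mutant LECs. Pik3ca itself read 31.1 and 42.7 CPM in control and 29.6, 22.6, 42.0, 25.6 and 23.6 CPM in mutant LECs, and 40.3 and 48.2 CPM in control and 26.9, 18.9, 29.3, 21.4 and 17.7 CPM in mutant mice in BECs. The introduced allele is a chicken sequence, the rows used here are mouse genes and spike-ins, and the mouse gene does not check the labels.

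Foxo1 was the most abundant factor. In LECs it read 114 and 96.7 CPM in the 2 control mice and 130.4, 120.1, 111, 89.3 and 86.6 CPM in mutants 1 to 5, so the groups overlapped. The log2 fold change was 0.03 (SE 0.20, adjusted p = 0.95), with a 95% interval of -0.43 to 0.49. Over LECs without a read of the fibroblast genes, a choice made after the data were seen, all 5 mutants lay below both controls. Foxo1 read 143 and 155 CPM in control and 129, 129, 110, 81.4 and 75.0 CPM in mutant mice there. The log2 fold change of -0.50 did not pass (adjusted p = 0.28), and how many of all genes separate there was not computed. In the sums of all BECs Foxo1 read 94.9 and 80.7 CPM in control and 146, 111, 145, 142 and 119.7 CPM in mutant mice. All 5 mutants thus lay above both controls, as 13.6% of all genes tested did. The test was not passed, at 0.59 (SE 0.18, adjusted p = 0.13) on the log2 scale. Foxo3, the second factor by level, read 48.0 and 29.9 CPM in control and 44.1, 31.0, 45.5, 27.7 and 16.8 CPM in mutant LECs, with overlap, and differed by -0.24 (SE 0.39, adjusted p = 0.78). In BECs its values of 34.5 and 13.6 CPM in control and 26.1, 19.8, 33.4, 23.9 and 20.9 CPM in mutant mice overlapped too, and the log2 fold change was 0.05 (SE 0.39, adjusted p = 0.96). Foxo4 was near the limit of what these sums show, at 3.41 and 2.21 CPM in control and 3.10, 2.51, 0.893, 3.04 and 2.21 CPM in mutant LECs, and at 5.76 and 1.72 CPM in control and 1.80, 2.05, 1.33, 4.00 and 2.66 CPM in mutant mice in BECs. It did not pass in either cell type, with log2 fold changes of -0.26 (SE 0.62, adjusted p = 0.86) and -0.66 (SE 0.71, adjusted p = 0.65). On a per-length scale (RPKM, mean of the controls) the LEC order of the 3 factors was Foxo1 at 12.1, Foxo3 at 5.13 and Foxo4 at 0.805. Among all 10 genes Txnip led at 673, followed by Tsc22d3 at 70.9, Sesn1 at 47.7, Pik3ip1 at 13.7, Foxo1, Foxo3, Ccng2 at 2.96, Bcl6 at 2.14, Irs2 at 0.864 and Foxo4. The values of the 2 controls overlapped between Tsc22d3 and Sesn1, between Pik3ip1 and Foxo1, and between Irs2 and Foxo4, so these neighbours do not differ beyond their spread. In BECs the order was Txnip at 447, Tsc22d3 at 95.2, Pik3ip1 at 31.1, Sesn1 at 15.2, Foxo1 at 9.96, Ccng2 at 7.26, Foxo3 at 3.12, Bcl6 at 2.32, Foxo4 at 1.05 and Irs2 at 0.447, with overlap between Pik3ip1 and Sesn1, Foxo3 and Bcl6, and Foxo4 and Irs2. The Irs2 length in the count tables, 4024 bases, is shorter than the 6323 exon bases of the annotation.

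**Figure D1:**
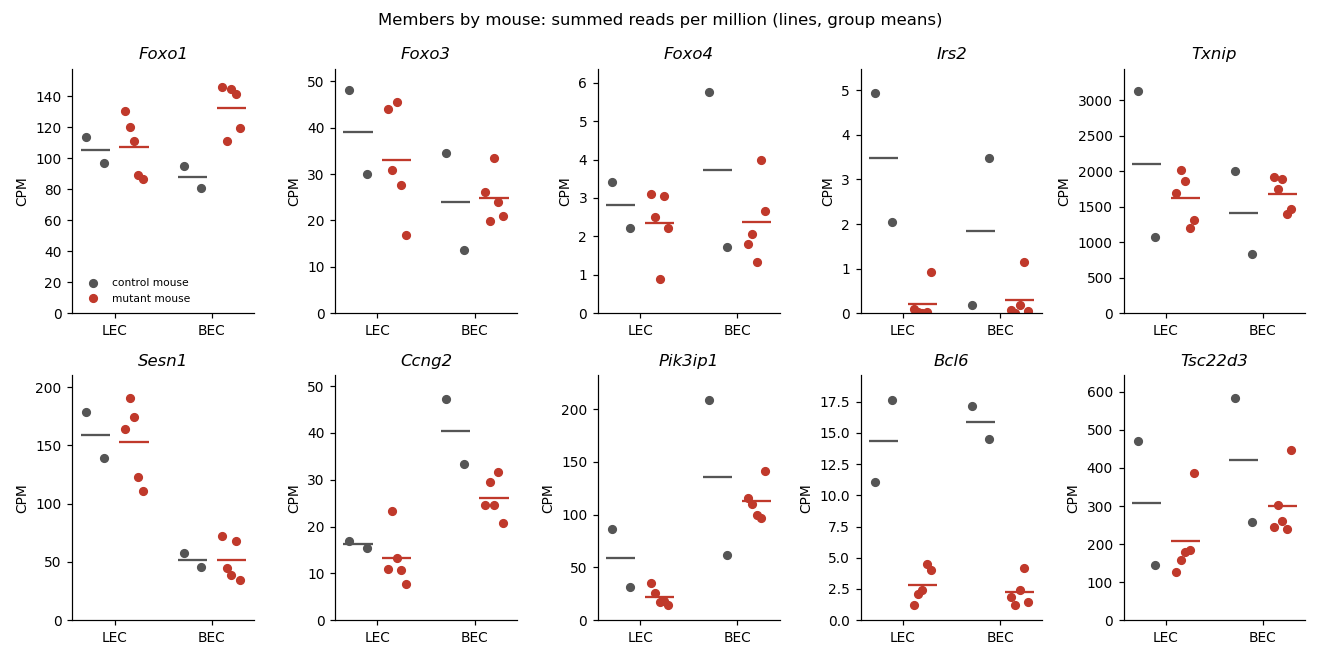
Level of each of the 10 genes (vertical axis, CPM of the summed reads, scaled by TMM) in LECs and BECs, 1 point per mouse, grey for the 2 control and red for the 5 mutant mice, lines for group means. Bcl6 lies below both controls in every mutant in both cell types, Irs2 in LECs, Ccng2 in BECs; Foxo1 lies above both in BECs. The other values overlap.

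Among the responsive genes, Bcl6, a transcriptional repressor, differed most plainly. It read 11.1 and 17.7 CPM in control and 1.21, 2.08, 2.45, 4.50 and 4.01 CPM in mutant LECs, and 17.2 and 14.5 CPM in control and 1.85, 1.21, 2.43, 4.17 and 1.45 CPM in mutant mice in BECs. All mutant mice were below both controls in both cell types, as 11.7% of genes were in LECs and 11.5% in BECs. The log2 fold change was -2.33 (SE 0.53, adjusted p = 0.058) in LECs, which missed the threshold, and -2.83 (SE 0.55, adjusted p = 0.041) in BECs, which passed, at 0.14 times the control level. Its 2 plates disagreed in mutant 5, whose LECs read 7.63 CPM on the first plate and 0.651 on the second. In BECs the adjusted p ran from 5.3e-05 to 0.33 over 18 alternatives, and 6 of them passed. Leaving out any 1 mouse other than mutant 4 gave an adjusted p above 0.05. With mutant 5 alone against the controls, the comparison within 1 plate series, Bcl6 read -1.83 in LECs and -3.44 in BECs (adjusted p = 0.87 in BECs), also chosen after the data were seen. When only cells without a read of the fibroblast genes were summed, an alternative added after the data were seen that left 42 to 315 LECs a mouse, Bcl6 read 26.5 and 18.5 CPM in control and 1.20, 2.36, 2.60, 4.28 and 3.05 CPM in mutant LECs and passed (-3.08, adjusted p = 0.022). In BECs it read 17.3 and 18.3 CPM in control and 2.12, 0.651, 2.35, 4.82 and 1.52 CPM in mutant mice and did not (-2.98, adjusted p = 0.054).

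Irs2, an adaptor that couples insulin receptors to PI3K and is itself induced by FOXO1, was scarce. It read 4.93 and 2.04 CPM in control and 0.106, 0.0182, 0.00858, 0.0347 and 0.924 CPM in mutant LECs, from 273 and 132 reads in the controls and 7, 1, 1, 2 and 179 in mutants 1 to 5. Every mutant was below both controls, but the gene did not pass, at -3.95 (SE 1.51, adjusted p = 0.20), and without mutant 5 it did, at -6.34 (adjusted p = 0.036). The separation was not kept in parts of the LECs. In non-cycling LECs control 2 read 0.842 CPM, below the 1.14 CPM of mutant 5. Over LECs without a fibroblast read, control 2 read 0 CPM, not above any mutant. The LECs of mutant 5 read 1.91 CPM on the first plate and 0.00987 on the second. In BECs the values of 0.191 and 3.48 CPM in control and 0.0794, 0, 0.184, 1.15 and 0.0496 CPM in mutant mice overlapped. Pik3ip1 encodes an inhibitor of PI3K at the cell surface. In LECs it read 85.9 and 31.3 CPM in control and 35.5, 25.7, 17.6, 18.6 and 14.6 CPM in mutant mice, so control 2 overlapped with mutant 1, and the difference of -1.39 (SE 0.43, adjusted p = 0.12) on the log2 scale did not pass. Without control 1 it was -0.46. In BECs it read 209 and 61.6 CPM in control and 116, 110.4, 99.5, 96.9 and 141 CPM in mutant mice, inside the range of the controls, and differed by -0.26 (SE 0.39, adjusted p = 0.75). DESeq2 called Bcl6 and Pik3ip1 lower in LECs (adjusted p = 0.00072 and 0.024), and in BECs it called Bcl6 lower and Foxo1 higher (adjusted p = 5.3e-05 and 0.025).

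Txnip, which blocks glucose uptake and thioredoxin and also answers to the glucose sensor Mondo, was the most abundant member. It read 3138 and 1075 CPM in control and 1691, 2022, 1868, 1208 and 1319 CPM in mutant LECs. All 5 mutants lay between the 2 controls. On the log2 scale the difference of -0.38 (SE 0.36, adjusted p = 0.60) turned to 0.62 without control 1. In BECs it read 2011 and 829 CPM in control and 1916, 1748, 1892, 1404 and 1475 CPM in mutant mice, again between the controls, with 0.25 (SE 0.30, adjusted p = 0.69). Of its exon bases, 19.4% are shared with Gm15441, and reads there cannot be told apart. Foxo1 shares 7.78% with Gm20402. Tsc22d3 (GILZ) is also induced by glucocorticoids. It read 471 and 145 CPM in control and 126, 159, 180.1, 183 and 387 CPM in mutant LECs, where mutant 5 stood apart, and 584 and 257 CPM in control and 245, 304, 259, 241 and 448 CPM in mutant mice in BECs. The log2 fold changes were -0.57 (SE 0.50, adjusted p = 0.56) and -0.49 (SE 0.34, adjusted p = 0.45).

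Sesn1 is a stress-induced brake on mTORC1. It read 179 and 139 CPM in control and 164, 190.4, 175, 123 and 111 CPM in mutant LECs, and 57.5 and 45.4 CPM in control and 72.2, 44.6, 38.7, 68.1 and 34.6 CPM in mutant mice in BECs. The 95% intervals of the log2 fold change, -0.60 to 0.48 and -0.75 to 0.75, cover changes of either sign. Ccng2 encodes an atypical cyclin that goes with cell-cycle exit. In LECs its values of 16.9 and 15.5 CPM in control and 10.9, 23.2, 13.3, 10.8 and 7.75 CPM in mutant mice overlapped, at -0.30 (SE 0.42, adjusted p = 0.74). In BECs it read 47.3 and 33.3 CPM in control and 24.5, 29.6, 24.6, 31.6 and 20.7 CPM in mutant mice, all of them lower than both controls, and the log2 difference, -0.62 (SE 0.25, adjusted p = 0.23), did not pass. Hence 2 of the 10 genes (Irs2, Bcl6) were below both controls in every mutant in LECs and 2 (Ccng2, Bcl6) in BECs, beside background shares of 11.7% and 11.5%, while none was above in LECs, where 13.8% of genes were.

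**Figure D2:**
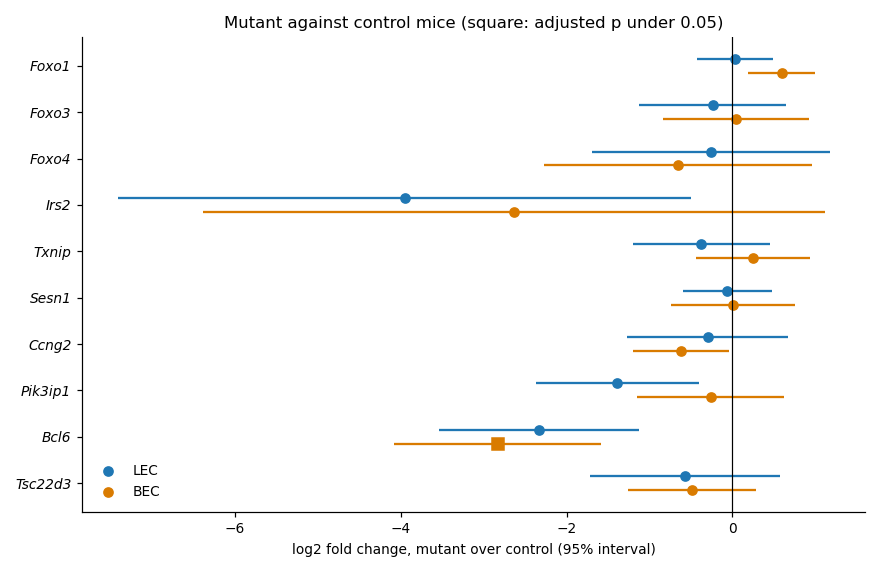
Log2 fold change of mutant over control mice (horizontal axis) with its 95% interval for the 10 genes, blue for LECs and orange for BECs, squares for an adjusted p under 0.05 in edgeR. Only Bcl6 in BECs is a square, and the intervals of Foxo3, Foxo4, Txnip, Sesn1 and Tsc22d3 span 0 in both cell types.

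Within mice, several members differed between LECs and BECs, which were compared as sums of the same mouse with the mouse as a block and without the 6 gate genes. In the 2 control mice, 5.67% of 21905 genes were called higher and 4.71% lower in LECs, and in the 5 mutant mice 9.9% and 9.27%. Sesn1 was higher in LECs of 7 of 7 mice, with LEC over BEC ratios of 3.17 and 3.10 in the control mice and 2.26, 4.40, 4.48, 1.76 and 3.17 in mutants 1 to 5. It passed in both sets, at log2 1.65 (SE 0.33, adjusted p = 0.017) in controls and 1.59 (SE 0.21, adjusted p = 0.0012) in mutants. Leaving out control 1 or control 2 took away the call in controls. Pik3ip1 was lower in LECs of 7 of 7 mice, with ratios of 0.418 and 0.514 in the control mice and 0.304, 0.24, 0.175, 0.187 and 0.103 in mutants 1 to 5. It passed in the mutants, at -2.40 (SE 0.22, adjusted p = 0.00019), and missed the threshold in the controls, at -1.11 (SE 0.33, adjusted p = 0.077). Ccng2 was likewise lower in LECs of 7 of 7 mice and passed in the mutants, at -1.08 (SE 0.23, adjusted p = 0.012), against -1.27 (SE 0.35, adjusted p = 0.061) in the controls. Tsc22d3 was lower in LECs of all mice too, at -0.61 (SE 0.13, adjusted p = 0.013) in mutants and -0.55 (SE 0.21, adjusted p = 0.15) in controls. In the control set 2 of the 10 genes passed, both higher in LECs, and in the mutant set 4, of which 1 was higher. The other of the 2 was Txnip, at 0.53 (SE 0.13, adjusted p = 0.04), where its ratios were 1.59 and 1.31, and read -0.08 (SE 0.08, adjusted p = 0.60) in the mutants. Of 13 alternatives, 3 called Txnip in the control set.

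The mutant effect in LECs minus that in BECs was then tested in the same fit. Here 0.032% of 21905 genes were called for a larger and 0.155% for a smaller effect in LECs, and 0 of the 10 members. At an unadjusted p under 0.05 were 3 members, and 2525 of the 21905 genes. DESeq2 called Txnip and Pik3ip1 (adjusted p = 0.039 and 0.034), and it also called more of all genes than edgeR (counts in the closing section). The 3 were Txnip (log2 difference of the effects -0.61, SE 0.15, adjusted p = 0.18), Pik3ip1 (log2 difference of the effects -1.29, SE 0.39, adjusted p = 0.26) and Foxo1 (log2 difference of the effects -0.60, SE 0.24, adjusted p = 0.39), each with the smaller value in LECs. The Foxo1 ratio of LECs over BECs was 1.22 and 1.21 in the control mice and 0.887, 1.12, 0.762, 0.615 and 0.717 in mutants 1 to 5, so 5 of 5 mutants were below both controls. How many of all genes have ratios that separate in this way was not computed. A difference of the mutant effect between LECs and BECs was thus not detected for any member in edgeR. In simulated data this test recovered 11% of log2 differences of size 1 and 91% of size 2. Those data had the same dispersion of 0.05 for every gene and changes only in well-read genes. The recovery for scarcer or more variable members was not simulated.

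Ptx3 marks the capillary LECs that the study follows. Counting as Ptx3-positive a LEC in which at least 2 of 50000 reads drawn from it were Ptx3, such cells made up 7.10% and 27.4% of control LECs and 35.8% to 55.9% of mutant LECs. Inside the 5 mutant mice, 3 of the 9 members tested were lower in Ptx3-positive cells, none was higher, and Irs2 was too scarce to test. Of 15745 genes, 2.69% were called lower and 2.58% higher. Foxo1 read 178, 152, 136, 124 and 103 CPM in the Ptx3-negative and 73.9, 62.2, 74.9, 55.9 and 72.6 CPM in the Ptx3-positive LECs of mutants 1 to 5, lower in 5 of 5 mice, at log2 -1.05 (SE 0.14, adjusted p = 0.0089). It also passed without cycling cells (adjusted p = 0.011). The 2 sets of Foxo1 values did not overlap. How many of all genes separate in this way, or are lower in every mouse, was not computed. Txnip read 1836, 2347, 2105, 1433 and 1598 CPM outside and 1495, 1421, 1484, 977 and 1081 CPM inside the set, lower in 5 of 5, at -0.57 (SE 0.06, adjusted p = 0.0062). Pik3ip1 read 45.3, 35.7, 27.7, 25.8 and 24.3 CPM outside and 23.6, 7.55, 4.16, 11.6 and 7.32 CPM inside the set, lower in 5 of 5 and also without overlap, at -1.80 (SE 0.32, adjusted p = 0.022). Leaving out 1 mouse took its adjusted p above 0.05 for 4 of the 5 mice. Sesn1, with -0.43 (SE 0.17, adjusted p = 0.23), and Tsc22d3, with -0.07 (SE 0.15, adjusted p = 0.86), did not pass. In the control mice, which enter no test here, Foxo1 read 113 and 99.4 CPM in Ptx3-negative and 127 and 96.8 CPM in the 13 and 48 Ptx3-positive LECs, and Pik3ip1 81.0 and 22.0 CPM outside and 149 and 56.0 CPM inside the set. A fall of Foxo1 or Pik3ip1 in both was thus not seen in the controls, and the difference from the mutants was not tested.

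Cycling LECs, in which 3 or more of 7 proliferation genes were read (Mki67, Top2a, Ccnb1, Cdk1, Birc5, Cenpf, Racgap1) among the same 50000 reads, were compared with the other LECs of the same mutant mice, with those 7 genes left out. Here 3.23% of 16054 genes were called lower and 4.7% higher in cycling cells. Of the 9 members tested, 3 were lower, Foxo1, Txnip and Sesn1, and none was higher. Txnip read 1899, 2247, 1973, 1275 and 1376 CPM in non-cycling and 1126, 1133, 1109, 831 and 917 CPM in cycling cells, without overlap. The difference was -0.73 (SE 0.06, adjusted p = 0.00074) on the log2 scale, called in 11 of 11 alternatives. Sesn1 read 182, 227, 193, 132 and 127 CPM outside and 116, 31.9, 47.7, 73.1 and 34.3 CPM inside the set, again without overlap, at -1.62 (SE 0.32, adjusted p = 0.022). It lost its call without mutant 3 or mutant 5. Foxo1 read 142, 139, 117, 98.9 and 88.5 CPM outside and 97.7, 39.5, 69.4, 38.7 and 66.7 CPM inside the set and was lower in 5 of 5 mice, at -0.94 (SE 0.22, adjusted p = 0.045). Without any 1 of the mice its adjusted p was between 0.055 and 0.12. Pik3ip1 was lower in 5 of 5 mice, 43.6, 31.5, 20.1, 22.1 and 16.3 CPM in non-cycling and 13.5, 0.106, 0.509, 0.708 and 6.59 CPM in cycling cells, and missed the threshold, at -3.90 (SE 1.04, adjusted p = 0.067). Ccng2 read 13.2, 22.9, 12.1, 9.41 and 8.11 CPM outside and 4.47, 26.8, 20.1, 16.9 and 5.30 CPM inside the set and gave -0.03 (SE 0.45, adjusted p = 0.98). How many of all genes are lower in every mouse, or separate without overlap, was not computed for cycling cells either. Since 1 and 4 control LECs were cycling, the same values were not compared in control mice.

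**Figure D3:**
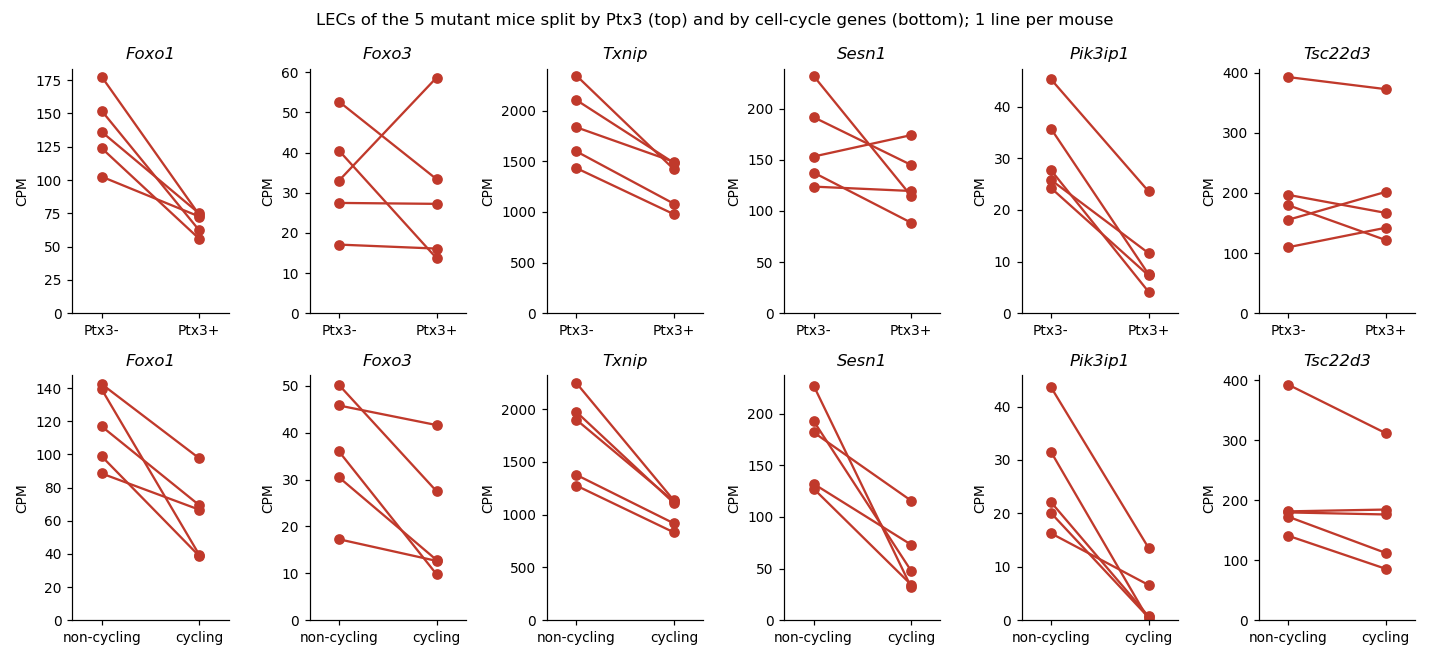
Level (vertical axis, CPM) of 6 genes in 2 sets of LECs from each of the 5 mutant mice, 1 line per mouse, Ptx3-negative against Ptx3-positive cells on top and non-cycling against cycling cells below. The lines for Foxo1, Txnip and Pik3ip1 end lower in every mouse in both rows, as do those of Foxo3 and Sesn1 in the lower row. How many of all genes are lower in every mouse in either split was not computed.

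The number of cells with a read gives a second view of the members. After thinning each cell to 50000 reads, Bcl6 was read in 9.29% and 10.3% of the cells of the control mice and in 2.17%, 4.81%, 5.79%, 6.59% and 5.99% of those of mutants 1 to 5 in LECs, all mutants below both controls. In BECs it was read in 10.7% and 6.37% of the cells of the control mice and in 3.83%, 1.09%, 4.85%, 6.90% and 2.64% of those of mutants 1 to 5, where mutant 4 was above control 2. Irs2 was read in 2.73% and 1.14% of the cells of the control mice and in 0.543%, 0%, 0%, 0.549% and 0.817% of those of mutants 1 to 5 in LECs, and the 0 of 187 and 0 of 363 cells allow shares of up to 1.60% and 0.826%, for counting error only. Foxo1 was read in 36.6% and 41.7% of the cells of the control mice and in 58.2%, 46.0%, 45.5%, 47.8% and 42.5% of those of mutants 1 to 5 in LECs and in 37.7% and 28.0% of the cells of the control mice and in 56.8%, 43.5%, 51.2%, 43.7% and 43.2% of those of mutants 1 to 5 in BECs, above both controls in every mutant in both. The exact permutation test over mice (2-sided, 21 arrangements of 2 controls and 5 mutants) gave p = 0.0476, the smallest it allows, for Bcl6 and Irs2 in LECs and Foxo1 in BECs, and the adjusted p over the 20 comparisons was 0.318 for each. The permutation p for Foxo1 in LECs was 0.19. How often all mutants lie on 1 side of both controls over all genes was not computed for these shares. In cells as deposited, Foxo1 reads were found in 80.9% and 68.6% of the cells of the control mice and in 84.2%, 64.2%, 65.8%, 66.5% and 80.7% of those of mutants 1 to 5 in LECs, where the groups overlapped. Median reads per LEC were 274769 to 488024.

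Other genes of the FOXO network were read from lists. Of further FOXO targets in signalling (such as the insulin receptor), 0 of 9 higher and 0 lower were called in LECs and 0 of 9 higher and 0 lower in BECs. The most abundant of them were Eif4ebp1, a translation inhibitor, at 96.8 and 111 CPM in control and 53.2, 64.0, 79.3, 52.5 and 119 CPM in mutant LECs, and Trib1, a pseudokinase, at 71.3 and 52.1 CPM in control and 58.7, 69.0, 80.0, 98.1 and 107 CPM in mutant mice. Of targets in growth arrest and cell death, 1 of 11 higher and 0 lower were called in LECs and 0 of 11 higher and 0 lower in BECs. The 1 called was the stress gene Gadd45a, which rose from 11.5 and 20.7 to 56.8, 46.3, 48.7, 80.2 and 77.6 CPM in LECs (log2 fold change 1.94, SE 0.35, adjusted p = 0.032). Leaving out mutant 1, 3 or 4 or control 1 took away the call. Of targets in metabolism and autophagy, 0 of 11 higher and 1 lower in LECs and 0 of 12 higher and 0 lower in BECs were called. Gabarapl1, an autophagosome gene, fell in LECs from 359 and 196 to 137, 141, 123, 95.3 and 99.3 CPM (log2 fold change -1.22, SE 0.25, adjusted p = 0.044). With 1 mouse left out the call held in 1 of 7 fits, without control 2, and without control 1 the value was -0.69 (adjusted p = 0.19). It did not pass in BECs (log2 fold change -0.05, SE 0.21, adjusted p = 0.92). Of endothelial targets, 0 of 10 higher and 1 lower in LECs and 0 of 10 higher and 0 lower in BECs were called. Spry2, a brake on receptor kinase signalling, fell in LECs from 30.3 and 32.4 to 4.98, 4.70, 5.23, 7.36 and 11.5 CPM (log2 fold change -2.21, SE 0.38, adjusted p = 0.028), a call that held in 1 of 7 fits with 1 mouse left out, without mutant 5. It did not pass in BECs (log2 fold change -1.74, SE 0.48, adjusted p = 0.10). The median log2 fold changes of these 4 lists were -0.54, -0.0042, -0.18 and -0.03 in LECs, beside -0.01 over all genes, and -0.06, -0.13, 0.18 and -0.55 in BECs, beside 0.01.

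Of a list of proliferation genes taken as FOXO-repressed, 2 of 5 higher and 0 lower were called in LECs and 1 of 5 higher and 0 lower in BECs. Whether FOXO acts on these genes in these cells was not tested. Ccnd1, a G1 cyclin, rose from 105 and 175 to 388, 391, 439, 501 and 424 CPM in LECs (log2 fold change 1.62, SE 0.22, adjusted p = 0.014), with a mutant level in BECs of 297, 351, 236, 239 and 181 CPM against 156 and 319 CPM. Plk1, a mitotic kinase, read 5.49 and 5.19 CPM in control and 61.4, 41.5, 26.9, 48.2 and 53.8 CPM in mutant mice in LECs (log2 fold change 3.12, SE 0.37, adjusted p = 0.0087) and rose from 3 and 4 reads, 0.0638 and 0.094 CPM, to 46.7, 38.4, 23.9, 14.2 and 18.3 CPM in BECs. Without cycling cells, Ccnd1 in LECs gave 1.53 (adjusted p = 0.039) and Plk1 0.13 (adjusted p = 0.97), and Plk1 in BECs gave 4.67 (adjusted p = 0.073). Ccnd1 did not pass in BECs (log2 fold change 0.13, SE 0.32, adjusted p = 0.85). Plk1 in LECs lost its call without control 1 (adjusted p = 0.053).

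Genes that share inputs with the members were also read. Of the glucocorticoid-induced genes, 0 of 10 higher and 1 lower in LECs and 0 of 10 higher and 1 lower in BECs were called. Klf9, a zinc finger factor, fell in LECs from 193 and 95.8 to 77.6, 60.0, 53.3, 51.9 and 51.2 CPM (log2 fold change -1.30, SE 0.27, adjusted p = 0.047). Leaving out 1 mouse kept this call in 1 of 7 fits, the one without control 2, and without control 1 the log2 fold change was -0.68 (adjusted p = 0.22). Mt1, a metallothionein, fell in BECs from 37.4 and 56.2 to 13.9, 13.7, 13.9, 22.6 and 16.0 CPM (log2 fold change -1.55, SE 0.29, adjusted p = 0.037), a call kept in 1 of 7 such fits, without mutant 4. Of the glucose-sensing list that includes Arrdc4, 0 of 5 higher and 0 lower were called in LECs and 0 of 5 higher and 0 lower in BECs. Tkt and Mlxip, its most abundant genes, read 215 and 189 CPM (Tkt) and 89.1 and 99.5 CPM (Mlxip) in the control LECs. Of p53 targets, 2 of 9 higher and 0 lower in LECs and 0 of 9 higher and 0 lower in BECs were called, and both called genes rose in LECs. Phlda3 rose from 64.8 and 53.1 to 220.5, 141, 167, 139.6 and 242 CPM (log2 fold change 1.63, SE 0.27, adjusted p = 0.026), and lost its call without mutant 3 or either control. Zmat3 rose from 13.4 and 12.8 to 36.3, 29.2, 29.8, 52.0 and 33.2 CPM (log2 fold change 1.46, SE 0.30, adjusted p = 0.044), a call kept in 0 of 7 fits with 1 mouse left out. Of the mTORC1, ATF4 and SREBP list, 0 of 13 higher and 0 lower in LECs and 1 of 13 higher and 0 lower in BECs were called. The 1 was the fatty acid desaturase Scd2, which rose in BECs from 93.1 and 68.9 to 216, 214, 179, 200.4 and 235 CPM (log2 fold change 1.37, SE 0.19, adjusted p = 0.012). Without control 2 its adjusted p was 0.054. The last list held immediate early genes, which cells switch on when tissue is dissociated, and the heat-shock genes Hspa1a and Hspa1b. Of its 10 genes, 0 higher and 3 lower were called in LECs and 0 higher and 3 lower in BECs. In LECs 7 of the 10 had a log2 fold change below 0, while Atf3, Hspa1a and Hspa1b were above 0. In BECs 9 of the 10 were below 0. The sum of the 10 genes was 2734 and 1559.7 CPM in control and 452 to 966 CPM in mutant LECs. Egr1 fell from 329 and 262 to 38.3, 43.4, 30.4, 39.3 and 64.1 CPM (log2 fold change -2.78, SE 0.25, adjusted p = 0.0039), and so did Junb (log2 fold change -2.28, SE 0.41, adjusted p = 0.032) and Fos (log2 fold change -2.21, SE 0.47, adjusted p = 0.0496). With 1 mouse left out, Egr1 kept its call in 7 of 7 fits, Junb in 2 of 7 (without mutant 5 or control 2) and Fos in 1 of 7 (without mutant 5). Without control 1, Junb was -1.65 (adjusted p = 0.13) and Fos -1.65 (adjusted p = 0.19). In BECs those called were Egr1 (log2 fold change -1.74, SE 0.23, adjusted p = 0.01), Junb (log2 fold change -1.55, SE 0.26, adjusted p = 0.027) and Ier2 (log2 fold change -0.89, SE 0.13, adjusted p = 0.014), kept in 6 of 7, 3 of 7 and 6 of 7 such fits, with the call lost without control 2, without mutant 2, mutant 4 or either control, and without control 1. Bcl6, Irs2 and Klf9 were lower in the same mice as these genes, and the part of dissociation in their levels was not tested.

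Over the 14 sums of LECs and BECs, the genes whose levels ran most like Foxo1 among 8399 genes with a mean of at least 20 CPM were Hhex (Pearson r = 0.863), Fbxo9 (0.863) and Thsd7a (0.851). This is a description over sums that share mice, plates and cell type. In BECs Hhex, a homeobox factor, read 111 and 86.8 CPM in control and 168, 99.7, 179, 208 and 120.1 CPM in mutant mice, and Thsd7a 55.5 and 44.3 CPM in control and 143, 136, 119.6, 162 and 84.7 CPM in mutant mice.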

How the data were processed

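Per the submitters' processing notes, reads were aligned to GRCm38 with TopHat2 2.1.1, per the study's methods together with the chicken PIK3CA sequence of the introduced allele, duplicate reads were removed with SAMtools 0.1.18 and reads were counted per gene with featureCounts; further versions are R 3.5.1 and Seurat 3.1.1. The deposited values are raw counts per gene and cell, not normalized, with gene lengths. Removing duplicates limits the counts of short, highly expressed genes. Of 3456 wells, 3248 cells had at least 50000 reads, 200 genes and at most 10% mitochondrial reads.

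Counts were summed per mouse and cell type, scaled by TMM, and tested with edgeR 4.0.16 (quasi-likelihood, R 4.3.3) over all genes past its filter on low counts, with Benjamini-Hochberg adjustment; DESeq2 1.42.0 was an alternative. Within-mouse comparisons had the mouse as a block. Replicates are mice. Mutants 3 and 5 had 2 plates each, summed. Levels are CPM; per-length levels divide by the lengths in the files. Alternatives covered normalization, filter, cells, gate, depth, plate series, sex and leaving out each mouse. The 10 members and all gene lists were chosen with earlier results of these data known. Named beyond the members are up to 5 called genes per list with the largest change, the 1 or 2 most abundant genes where none was called, and the 3 genes most like Foxo1. A list of upstream regulators of FOXO is not reported here. The fits were tested on simulated data. Intervals cover the spread between mice. A further control mouse was not analysed here.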

Additional observations from a re-analysis of the deposited data

Results flagged for a closer look

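Irs2 read 0.924 CPM in the LECs of mutant 5, where the other 4 mutants lay at 0.106 CPM or less. In BECs, Irs2 read 1.15 CPM in mutant 4, and the other 4 mutants read 0.184 CPM or less. Tsc22d3 read 387 CPM in the LECs of mutant 5, against 126 to 183 CPM in the other mutants. Each of these mice stands apart from its group by Dixon's gap test. Of 20 such groups tested, chance alone gives about 1 in 20. Plk1 differed between the cell types in its mutant effect, with the log2 fold change in LECs smaller than that in BECs by -5.29, and passed edgeR's test of the difference. Its control BECs held 3 and 4 reads, and the call was kept in 0 of 7 fits that left out 1 mouse (adjusted p 0.056 to 0.15) and in 4 of 13 alternatives.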

How the results depend on the processing

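Of the comparisons of mutant with control mice, DESeq2 called 2472 genes in LECs and 2238 in BECs, against 546 and 410 by edgeR, and 2 members in each. The plate series as a covariate gave 178 and 54 genes, equal cell numbers 362 and 269, and no cycling cells 97 in LECs. Chosen after the data were seen, mutant 5 alone against the controls gave 3 and 0 genes, and cells with no fibroblast read 923 and 730 genes, with 1 and 0 members. In BECs, 0 members were called with no filter, the replicate block, the plate series covariate, equal cell numbers, thinned cells, the stricter gate, and mutant 5 alone.

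The replicate numbers only name the mice: deviations of same-numbered mice correlated at -0.0468 and 0.0266 in LECs and 0.0293 and 0.107 in BECs. With the replicate block, 3 and 0 genes were called. Without the block of mice, 1 member was called between LECs and BECs in controls, and 1 member and 524 genes between Ptx3-positive and Ptx3-negative LECs.

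DESeq2 called 1242 genes for the difference of the mutant effects (2 members), 4313 between LECs and BECs in controls (4 members, and 1 under DESeq2 size factors or no filter), 2431 for Ptx3 and 3217 for cycling (5 members). The difference of the effects had 20 genes without cycling cells and 67 with the stricter gate, Ptx3 had 527 without cycling cells, and cycling defined by 2 genes had 469. In cells as deposited, 2 members had a lower share of BECs in every mutant, and the same count over all genes was not computed.

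None of the members whose sign turned passed the test. Log2 fold changes that changed sign were, with the plate series covariate, Foxo1 -0.28, Tsc22d3 0.33 in LECs and Foxo3 -0.20, Sesn1 -0.57, Pik3ip1 0.06145, Tsc22d3 0.09316 in BECs. With equal cell numbers, Foxo1 -0.008905 in LECs and Sesn1 -0.03797 in BECs. With mutant 5 alone, Foxo1 -0.27, Tsc22d3 0.34 in LECs and Foxo3 -0.19, Sesn1 -0.56, Pik3ip1 0.07015, Tsc22d3 0.10 in BECs. With no fibroblast read, Foxo1 -0.50, Foxo3 0.06375, Sesn1 0.02954 in LECs and Foxo4 0.71, Sesn1 -0.38 in BECs. With the replicate block, Foxo4 0.02253, Txnip 0.00919, Sesn1 0.16 in LECs. With thinned cells, Foxo4 0.01333 in LECs. With the stricter gate, Foxo4 0.16 in LECs and Foxo3 -0.11, Sesn1 -0.05936 in BECs. With no cycling cells, Sesn1 0.11 in LECs and Foxo3 -0.009523, Sesn1 -0.02524 in BECs. With DESeq2, Sesn1 -0.008012 in BECs. With DESeq2 size factors, Sesn1 -0.008066 in BECs.

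Leaving out 1 mouse at a time gave log2 fold changes of -0.07667 to 0.18 for Foxo1 in LECs, -0.53 to 0.17 for Foxo3 in LECs, -0.54 to 0.11 for Foxo4 in LECs, -0.94 to 0.62 for Txnip in LECs, -0.22 to 0.15 for Sesn1 in LECs, -1.19 to 0.54 for Tsc22d3 in LECs, -0.47 to 0.87 for Foxo3 in BECs, -1.27 to 0.47 for Foxo4 in BECs, -3.54 to 0.62 for Irs2 in BECs, -0.25 to 1.02 for Txnip in BECs, -0.15 to 0.19 for Sesn1 in BECs, -0.88 to 0.87 for Pik3ip1 in BECs, -0.96 to 0.22 for Tsc22d3 in BECs.

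It gave 153 to 546 called genes in LECs, 159 to 586 in BECs, 0 to 20 for the difference of effects (0 without control 2), 1151 to 2124 and 2973 to 4409 between LECs and BECs in controls and mutants, 400 to 493 for Ptx3 and 641 to 917 for cycling. Members called ran over 0 to 1, 0 to 1, 0 to 0, 0 to 3, 4 to 5, 2 to 3 and 1 to 2 in that order, and members with a lower share of cells in every mutant over 2 to 5 in LECs and 0 to 4 in BECs. For the shares of cells, the same counts over all genes were not computed. The cause of these shifts was not tested. In simulated data with the read totals of these mice, changes of log2 size 1 were recovered for 49% of genes in LECs and 47% in BECs, and of size 2 for 100% in each, while differences of the effects were recovered for 11% and 91%. The simulated spread was a dispersion of 0.05 for every gene, not the spread of these mice, and only well-read genes were changed. These shares do not give the recovery for scarcer or more variable members such as Irs2, Foxo4 and Bcl6.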
